A study of Acipenser schrenckii with 2 samples.

Results

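The let-7, miR-99, miR-100 and miR-125 probes of a fish miRNA chip were compared between a female and a male gonad of Amur sturgeon (Acipenser schrenckii). Members were taken by name. Any miRNA probe whose name, without its species prefix, begins with let-7, miR-98, miR-99, miR-100 or miR-125 was included, whatever its letter or arm, which gave 32 of the chip's 663 miRNA probes. Of these 20 were let-7 probes, 7 were miR-99 or miR-100 probes and 5 were miR-125 probes, while no probe was named miR-98. Prefixes give the fish after which a probe is named: dre zebrafish, ola medaka, ipu channel catfish, ccr common carp, fru fugu and pol olive flounder. Many probes are also listed under names from other fish. A probe is therefore no evidence that the sturgeon carries exactly that sequence.

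The female array carried gonad RNA of 1 female and the male array gonad RNA of 1 male, both 11 months old, in normal condition and untreated as far as the labels say, at a stage the submitters place early in sexual differentiation. By its title the series asks which miRNAs are sex-biased. Because each sex has a single fish and a single array, no p-value can be had. Every ± below is an SD over 5 repeat spots of 1 array, which measures technical spread only. Gonads were not separated into cell types, so a larger share of a cell type and more miRNA per cell cannot be told apart.

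MicroRNAs lower the output of mRNAs that pair with their seed, the bases near the 5′ end. let-7 was found in the nematode Caenorhabditis elegans as a regulator of developmental timing, a so-called heterochronic gene, and miR-125 is the vertebrate relative of lin-4, the other founding miRNA of that pathway. In vertebrates let-7 accumulates as cells differentiate, and the RNA-binding protein LIN28 blocks its maturation in stem cells and early germ cells. In mouse testis let-7 rises as spermatogonia differentiate. miR-99 and miR-100 differ from each other by a single base, and in mammals they lie in clusters with a let-7 and a miR-125 gene, from which all are made as 1 transcript.

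The sequences that distinguish the probes are those of the targets given with the chip, shown 5′ to 3′ with the seed (bases 2 to 8) in capitals. All let-7 main-arm probes share the seed GAGGUAG, so that the letters of the family differ only behind it:
dre-let-7a: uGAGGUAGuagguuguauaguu
dre-let-7b: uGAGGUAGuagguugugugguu
dre-let-7c: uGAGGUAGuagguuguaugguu
dre-let-7d: uGAGGUAGuugguuguaugguu
dre-let-7e: uGAGGUAGuagauugaauaguu
dre-let-7f: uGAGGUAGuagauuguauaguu
dre-let-7g: uGAGGUAGuaguuuguauaguu
dre-let-7h: uGAGGUAGuaaguuguguuguu
dre-let-7i: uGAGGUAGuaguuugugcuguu
dre-let-7j: uGAGGUAGuuguuuguacaguu
fru-let-7j: uGAGGUAGuuuuuuguacaguu

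Counted from 1 at the 5′ end and with the base of dre-let-7a first, let-7f differed by G12A, let-7g by G12U and let-7c by A19G. let-7b carried A17G and A19G, let-7d carried A10U and A19G, and let-7e carried G12A and U16A. let-7h had 3 such differences (G11A, A17G and A19U), dre-let-7j had 3 and let-7i had 4. The miR-100 and miR-99 targets share the seed ACCCGUA and the miR-125 targets the seed CCCUGAG. miR-99 differed from miR-100 by A16U and dre-miR-125c from dre-miR-125b by U18C. dre-miR-125a matched dre-miR-125b over the first 13 bases, and behind an extra U most of its further bases matched again:
dre-miR-100: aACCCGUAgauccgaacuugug
dre-miR-99: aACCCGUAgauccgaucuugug
dre-miR-125a: uCCCUGAGacccuuaaccugug
dre-miR-125b: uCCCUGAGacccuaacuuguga
dre-miR-125c: uCCCUGAGacccuaacucguga

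Of the 32 targets 27 held the seed of their family. The others were the opposite arms ola-let-7a-3p, pol-let-7a-3p, pol-let-7d-3p and ola-miR-125a-3p, and ola-miR-99, whose name gives no arm but whose target lacks the miR-99 seed. The name of ola-miR-125c is also at odds with its target, which is that of dre-miR-125b with 1 more base at the 3′ end.

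Both gonads gave signal for nearly the whole group. A probe was called detected where 3 or more of its 5 spots lay above the 95th percentile of that array's empty spots. On that measure 30 of the 32 probes were detected, 28 of them on both arrays, against 490 of 663 over the chip. ola-miR-125a-3p and ola-miR-99 were detected on neither array, ola-let-7a-3p only on the female and fru-let-7j only on the male array. The male array was brighter, with a summed miRNA spot intensity of 7.03e+06 against 5.53e+06, although its empty spots were slightly darker (median 80.5 against 86.7). Before the arrays were set level all 30 detected members read higher in the male, by 0.071 to 2.22 on the log2 scale. So did 389 of the 490 detected probes of the chip, over which the median was 0.37. Levels below are normalized log2 intensities after quantile normalization, which removes any such overall shift, and net intensities are scanner values minus the empty-spot median before normalization.

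The size rule counted a probe as higher in a gonad where it was detected there, showed a gap of 1 or more in log2 units (2-fold) and had no overlap between the spots of the arrays. Over the chip 4.69% of the 490 detected probes were higher in the male gonad and 1.63% in the female gonad. Among the 30 detected members 5 (16.7%) passed in the male direction and 0 in the other. They were both let-7g probes, dre-let-7h, dre-let-7c and ola-miR-100. The last 2 rested on a single low spot each, described below. Spots that deviate by more than 0.5 from their probe median on the same array are called stray here. The median difference, male minus female, was 0.16 over the members and -0.059 over all detected probes. Members are not independent, since 9 sets of them have targets that contain one another, and with the brightest probe of each set kept, 2 of 19 targets were higher in the male gonad.

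**Figure D1:**
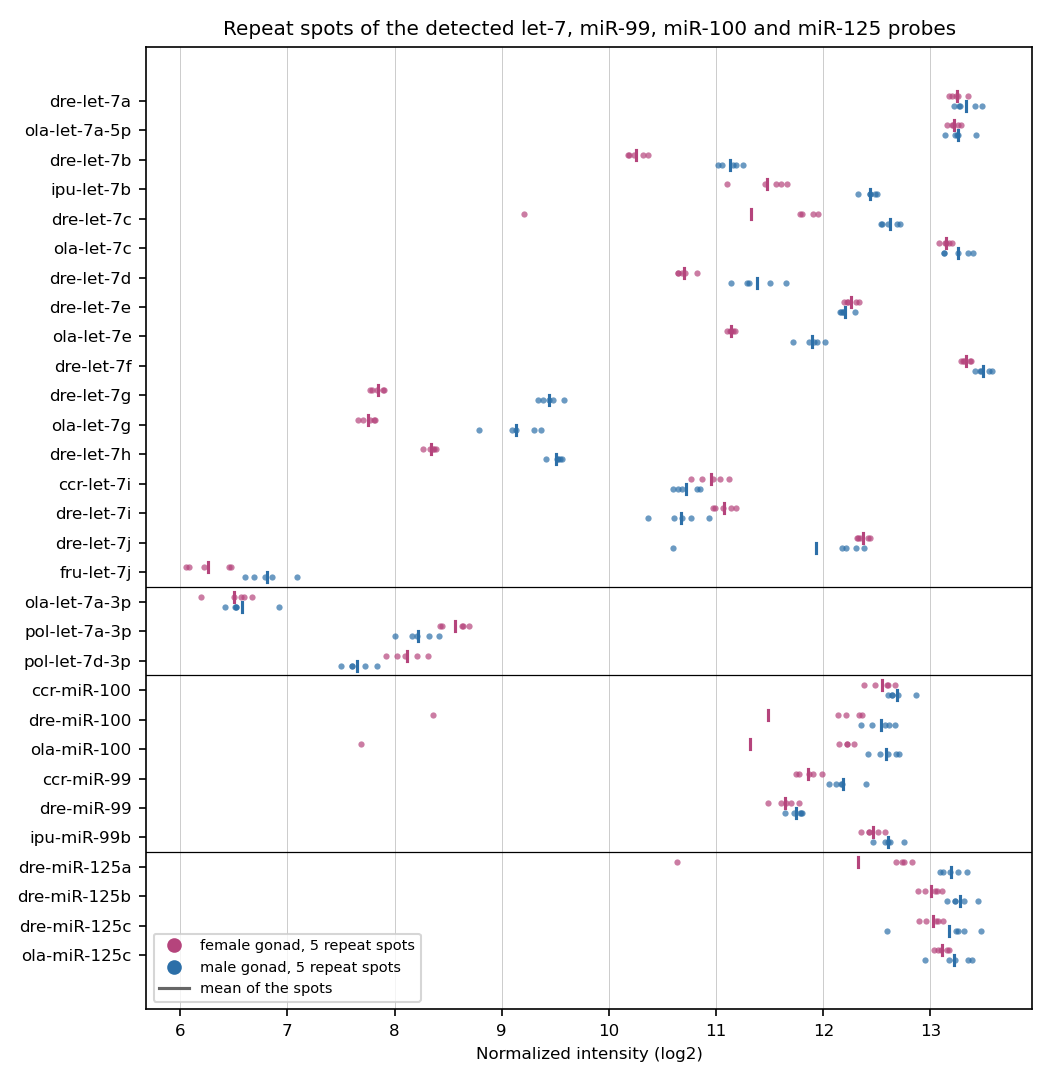
Normalized intensity (log2, x axis) of each of the 5 repeat spots of the 30 detected members (y axis), female array in pink and male array in blue, with a tick at the mean; lines part let-7 main arm, let-7 opposite arm, miR-99 and miR-100, and miR-125. The spots of both let-7g probes and of dre-let-7h lie far apart between the arrays, and 1 female spot each of dre-let-7c, dre-miR-100, ola-miR-100 and dre-miR-125a lies far to the left of its companions.

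dre-let-7g gave the largest sex difference of the group, and a second let-7g probe gave a similar one. The net intensity of dre-let-7g was 99.98 to 116 over the female spots and 711 to 857 over the male spots. Normalized levels were 7.84 ± 0.06 (female) and 9.44 ± 0.10 (male), a difference of 1.60 or 3.04-fold. Every male spot read far above the highest female spot. ola-let-7g, whose target is that of dre-let-7g without its last 2 bases, had net intensities of 89.4 to 108 in the female and 462 to 723 in the male. Its normalized levels were 7.75 ± 0.07 and 9.13 ± 0.23, a difference of 1.38 or 2.61-fold. The authors' deposited table, made from the same arrays, gave ratios of male over female of 3.66 and 3.47 for these probes. The target of dre-let-7g differs by 1 base (G12U) from that of dre-let-7a, which was far brighter. Median net intensities of dre-let-7a were 8457 (female) and 10944 (male). How far the let-7g probes or dre-let-7h also bound other let-7 letters was not tested.

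let-7h followed with a smaller difference. dre-let-7h had net intensities of 162 to 182 over the female and 753 to 841 over the male spots, again without overlap. It read 8.34 ± 0.05 and 9.51 ± 0.06, a difference of 1.17 or 2.25-fold, and the authors' deposited table gave 2.70. The chip holds no second let-7h probe. The ratios of net intensity, which carry neither the offset of 50 nor the normalization, were larger, at 7.12 for dre-let-7g, 5.85 for ola-let-7g and 4.59 for dre-let-7h, beside a median of 1.45 over the 416 probes detected on both arrays. In each of 17 ways of processing the values, these 3 probes were the members that always passed the size rule.

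Other values of the same arrays stand beside this result. Levels of the let-7g probes and dre-let-7h lie in the middle tertile of all detected probes. There 9.20% of the chip's probes were male-higher, these 3 among them, against 2.45% among the brightest and 2.44% among the dimmest. Control probes with P in their names had a median net ratio of male over female of 0.860 (10 detected), and those with M in their names 2.22 (16 detected, 15 of them above 1). What P and M stand for is not stated in the labels or headers. The part of these values in the let-7g and let-7h differences was not tested.

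let-7b came next, just short of the limit. The net intensity of ipu-let-7b was 1717 to 2564 in the female and 6144 to 6944 in the male, and that of dre-let-7b, with 1 base more, was 823 to 946 and 2361 to 2793. Both probes were separated completely between the arrays. Their normalized differences were 0.96 and 0.88, and neither passed the size rule, so that dre-let-7h at 1.17 was the nearest evenly spotted member inside the limit and ipu-let-7b the nearest outside it. With stray spots left out over the chip ipu-let-7b differed by 1.05 and passed. It had no stray spot of its own, its lowest female spot deviating by -0.46. The change came from repeating the normalization after spots of other probes were dropped. In the authors' deposited table the male over female ratios were 2.09 for ipu-let-7b and 1.85 for dre-let-7b.

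dre-let-7d also read higher in the male array without reaching the limit, with net intensities of 1234 to 1398 in the female and 2637 to 3776 in the male and a normalized difference of 0.68. let-7e gave unlike readings. dre-let-7e was at 12.26 ± 0.06 (female) and 12.20 ± 0.06 (male), a difference of -0.059 with overlapping spots. ola-let-7e, a target of 18 bases that lacks the last 4 of dre-let-7e, read 11.14 ± 0.03 and 11.89 ± 0.11, a difference of 0.75 with none. The spread within each probe was far smaller than the gap between them, so the sex difference of let-7e depended on which probe was read.

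The let-7a and let-7f probes and the medaka let-7c probe were nearly level between the sexes. Normalized levels of dre-let-7a were 13.25 ± 0.07 (female) and 13.33 ± 0.11 (male), a difference of 0.085, and ola-let-7a-5p, a base shorter, differed by 0.039. dre-let-7f differed by 0.16 and ola-let-7c by 0.10. The spots of both let-7a probes and of ola-let-7c overlapped between the arrays, and those of dre-let-7f were separate. The brightest member spot read 13337 and the brightest miRNA spot of that array 53463. Whether the signal of these probes was limited by the scale was not tested.

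let-7i leaned the other way. dre-let-7i had net intensities of 1616 to 1887 in the female and 1578 to 2368 in the male, ranges that overlap before the arrays are set level. Its normalized levels of 11.07 ± 0.09 and 10.67 ± 0.21 differed by -0.40, without overlap. The lowest male spot of dre-let-7i was uneven, with a pixel SD of 14.0% of its intensity against 4.88% at most in its companions. It was not stray and was kept. ccr-let-7i, a base shorter, differed by -0.24 with overlapping spots. Neither passed the size rule, and before normalization both read higher in the male, by 0.16 and 0.34, less than the chip's median of 0.37. dre-let-7j differed by -0.43, of which most came from a single male spot, and by -0.054 without it. fru-let-7j, which carries G11U besides the differences of dre-let-7j, was not detected on the female array. It read 39.8 to 81.2 net on the male array. After quantile normalization it lay 1.30-fold above the lowest normalized level of the probes detected on the female array. That excess depends on the scaling, since its difference was -0.0086 and 0.037 with scaling by the 75th percentiles.

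**Figure D2:**
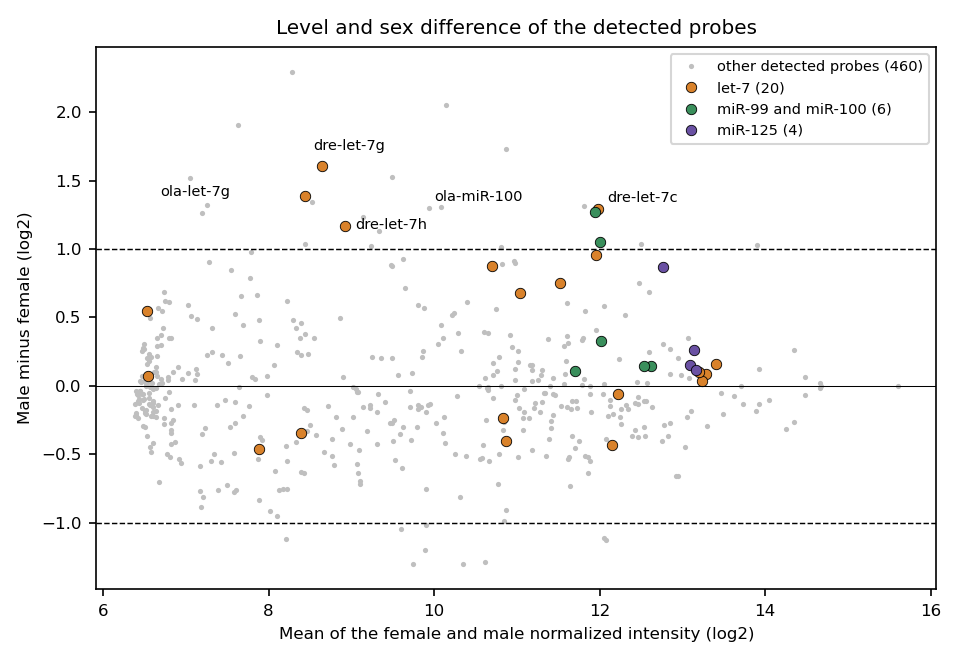
Male minus female difference (log2, y axis) against the mean normalized level (log2, x axis) for the 490 detected probes, members coloured by family and dashed lines at the size limit. let-7g and let-7h stand among dim to middle probes, let-7a, let-7f and ola-let-7c lie near 0 at the right, and no member lies below -0.46.

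The flounder opposite arms of the let-7 hairpin, usually the less abundant product, read lower on the male array after quantile normalization, while the matching main arms read higher. Their targets were these:
pol-let-7a-3p: cUAUACAAccuacugccuucc
pol-let-7d-3p: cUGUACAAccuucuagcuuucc
pol-let-7a-3p went from 8.57 ± 0.13 (female) to 8.22 ± 0.16 (male), a difference of -0.35, and pol-let-7d-3p from 8.11 ± 0.15 to 7.65 ± 0.13, a difference of -0.46. These directions depend on the scaling, since pol-let-7a-3p was at -0.014 with cyclic loess and 0.42 without normalization, and pol-let-7d-3p at -0.15 and 0.19. The chip assigns the flounder main arms of these hairpins to dre-let-7c (flounder let-7a-5p), dre-let-7b (flounder let-7b-5p, which shares pol-let-7a-3p) and dre-let-7d (flounder let-7d-5p). The difference of dre-let-7d exceeded that of its opposite arm by 1.14, with a range of 0.87 to 1.39 over the 17 ways of processing. For dre-let-7b the excess was 1.22, and for dre-let-7c it was 1.10 without its stray spot. Neither opposite arm passed the size rule. ola-let-7a-3p was at the limit of detection and differed by 0.071, beside 0.039 for ola-let-7a-5p. It read 1.74 to 30.4 net on the female array and 22.3 to 57.9 on the male array. It counted as undetected on the male array, whose detection limit was higher (113 against 103).

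Over the 17 main-arm let-7 probes, all detected on at least 1 array, the median difference was 0.55, with 13 above 0 and 4 below. That median is the value of fru-let-7j, which was not detected on the female array. It was 0.16 over 11 targets when the brightest probe of each was kept, and -0.0086 over the 17 probes with scaling by the 75th percentile of probes detected on both arrays, so that the main arms too have no settled direction as a group. The 3 opposite arms had a median of -0.35. Over all 20 let-7 probes it was 0.13, and scaling by the 75th percentile turned it to -0.12 or -0.073. The median over the chip then was -0.23 or -0.19, so the let-7 medians shifted together with the chip. No direction free of the scaling can be given for the family as a whole. The spread among letters, from -0.43 to 1.60, was much wider than these medians.

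miR-100 and miR-99 read slightly higher on the male array once stray spots were set aside. ccr-miR-100 was at 12.55 ± 0.12 (female) and 12.69 ± 0.10 (male), a difference of 0.14 with overlapping spots. dre-miR-100 and ola-miR-100, which hold the same sequence with 1 base more and 2 fewer, differed by 1.05 and 1.27, and the latter passed the size rule. In each of them a single female spot stood apart. For ola-miR-100 it read 103 net where the other 4 read 3761 to 4150, and for dre-miR-100 194.2 where the others read 3581 to 4214. Without these spots both probes differed by 0.32.

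The miR-99 probes had no stray spot, although 1 male spot of dre-miR-99 was uneven within the spot, as given below. ccr-miR-99 differed by 0.33, dre-miR-99 by 0.11 and ipu-miR-99b by 0.14, and only the spots of ccr-miR-99 were separate between the arrays. Over the 6 detected miR-99 and miR-100 probes the median was 0.24, with 6 of 6 above 0 in all 17 ways of processing. They hold only 2 targets, with a median of 0.14 when the brightest probe of each was kept. Over the chip 211 of 490 detected probes were above 0 in the reported setting. Without normalization all 30 detected members were above 0, as were 389 of 490 probes over the chip. With P control probes all 30 were again above 0, where the median over the chip was 0.90. Without stray spots none of the 6 probes passed the size rule. Their range then ran from 0.14 to 0.39. Most differences in the brightest tertile of the chip's detected probes lay between -0.43 and 0.49 with all spots kept.

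miR-125 probes differed little between the gonads except dre-miR-125a. dre-miR-125b was at 13.01 ± 0.09 (female) and 13.27 ± 0.11 (male), a difference of 0.26 with separate spots. ola-miR-125c, whose target holds that of dre-miR-125b whole, differed by 0.11, and dre-miR-125c by 0.15. dre-miR-125a gave 0.87, or 0.52 without a single low female spot that read 1206 net where the others read 5218 to 5787. Its 4 other female spots lay below every male spot, which ran from 9625 to 11510. Over the 4 detected miR-125 probes the median was 0.21, and 0 passed the size rule. Scaling by the 75th percentile turned the median to -0.088 or -0.043, beside -0.23 or -0.19 over the chip.

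The 4 low female spots were also uneven within the spot. Each file gives the SD of the pixels within a spot, and in brighter spots (at least 500 net) that were not stray the median pixel SD was 3.11% (female array) and 3.22% (male array) of the spot's intensity. In the 4 low female spots it was 68.1% for dre-let-7c, 43.8% for dre-miR-100, 53.7% for ola-miR-100 and 70.4% for dre-miR-125a, while no companion spot of these probes exceeded 5.37%. The low male spot of dre-let-7j had 11.5%, against 3.60% at most in its companions, and that of dre-miR-125c 6.69% against 5.90%. These male values lay inside the range of spots that were not stray. That range reached 21.4% (dre-miR-99) and 14.0% (dre-let-7i) on the male array and 8.64% on the female array. The pixel SDs of the let-7g and let-7h spots were 3.77% to 10.1% on both arrays, and these probes had no stray spot. Stray spots were found in 4 of 29 detected members (13.8%) of the female array and 2 of 29 (6.90%) of the male array, beside 9.87% and 9.07% of all detected probes.

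**Figure D3:**
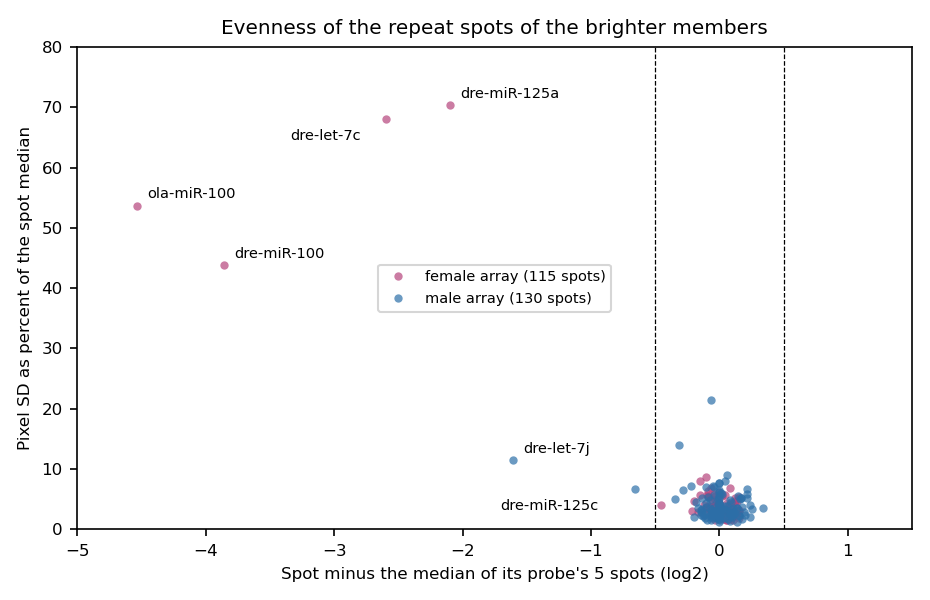
Pixel SD of a spot as percent of its intensity (y axis) against the spot's distance from the median of its probe (log2, x axis), for members with a median net intensity of at least 500 on that array; dashed lines mark 0.5. The 4 female spots far to the left have pixel SDs of 43.8% to 70.4%.

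Leaving out stray spots changed which members passed. dre-let-7c had 1 female spot at 426 net beside 2886 to 3265 in the others, and its difference went from 1.29 to 0.74. ola-let-7c, whose target lacks only the last base of dre-let-7c, differed by 0.16 then, so the let-7c probes still gave unlike values. Without stray spots 4 of 30 members (13.3%) were higher in the male gonad, namely the let-7g pair, dre-let-7h and ipu-let-7b, beside 4.08% of all detected probes. None of these 4 had a stray spot, and ipu-let-7b passed only through the repeated normalization. In the female direction the chip had 1.22% and the members 0. The same 4 passed the size limit in the authors' deposited table, which has no repeat spots and in which 4.49% of detected probes passed in the male and 1.43% in the female direction.

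**Figure D4:**
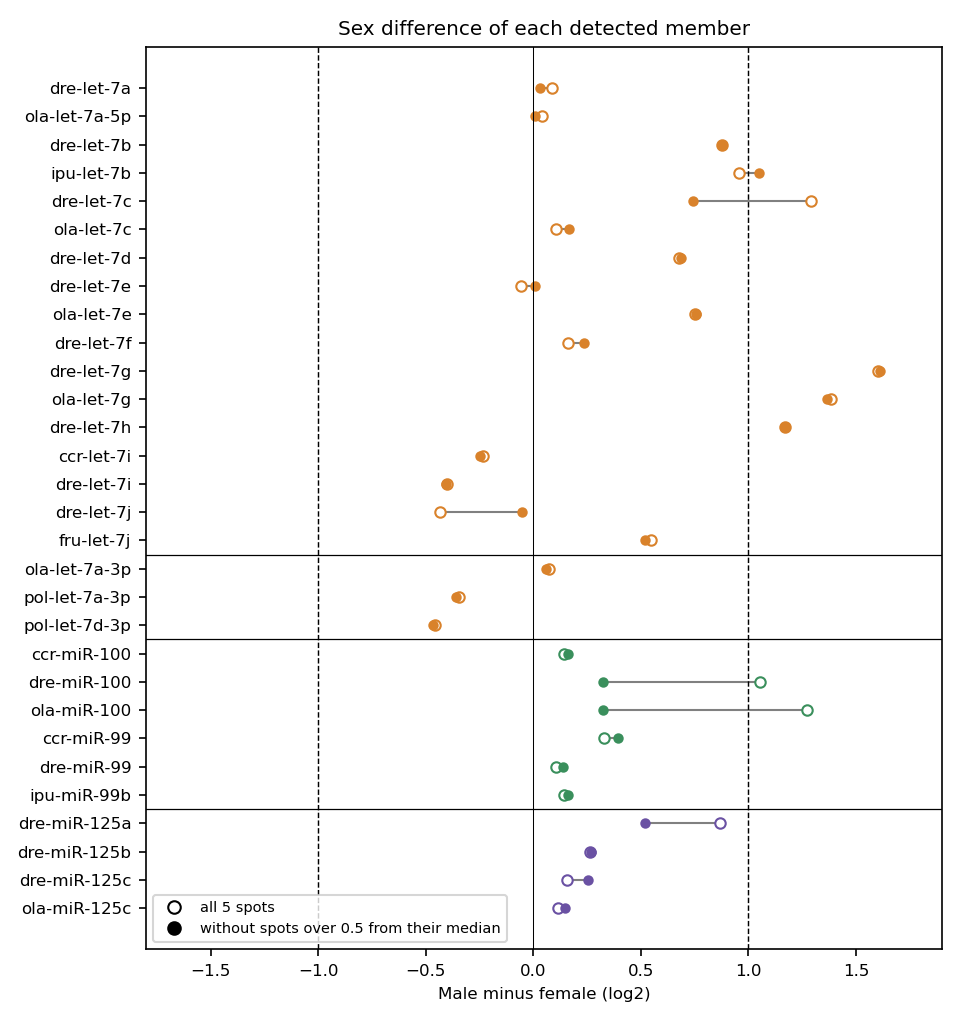
Male minus female difference (log2, x axis) of the 30 detected members (y axis) from all 5 spots (open circles) and without spots over 0.5 from the median of their probe (filled circles); dashed lines mark the size limit. dre-let-7c, dre-miR-100 and ola-miR-100 move below 1, while let-7g and let-7h stay.

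Probes for almost the same target gave a measure of the chip's own agreement. In 13 pairs of detected members 1 target held the other whole. Their differences lay a median of 0.22 apart with all spots and 0.16 without stray spots, and the widest gap without stray spots was 0.75, between the let-7e probes. With all spots the widest gap was 1.19, between the let-7c probes. All pairs were read on the same arrays, so these gaps hold no variation between fish or arrays. They cannot gauge the size of a sex difference.

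In mammals let-7c lies with miR-99a and miR-125b, let-7a with miR-100 and miR-125b, and let-7e with miR-99b and miR-125a. The arrangement in sturgeon is not known here. Without stray spots the let-7c probes differed by 0.16 (ola-let-7c) and 0.74 (dre-let-7c), the miR-99 probes by 0.14 (dre-miR-99, also listed as catfish miR-99a) and 0.39 (ccr-miR-99), and dre-miR-125b by 0.27. For the second set the values were 0.029 (dre-let-7a), 0.0077 (ola-let-7a-5p), 0.16 (ccr-miR-100) and 0.32 (each of dre-miR-100 and ola-miR-100). For the third they were 0.0094 (dre-let-7e), 0.76 (ola-let-7e), 0.16 (ipu-miR-99b) and 0.52 (dre-miR-125a). Despite its name, the target of ipu-miR-99b is that of dre-miR-99 with 1 more base. The third set therefore has no miR-99 reading apart from that of the first. Within the first and the third set the values thus varied with the probe read. Neither let-7g nor let-7h belongs to these sets.

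The miR-10 probes, whose sequence resembles that of miR-100 shifted by a base, had 9 of 11 detected with a median difference of 0.35. Of these 9, 2 (22.2%) were higher in the male, beside 4.69% of all detected probes. They were dre-miR-10c and ccr-miR-10d (2.05 and 1.02, or 1.85 and 1.02 without stray spots). The female spots of dre-miR-10c had an SD of 0.51. The brightest miR-10 probe, dre-miR-10b, differed by 0.31.

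**Figure D5:**
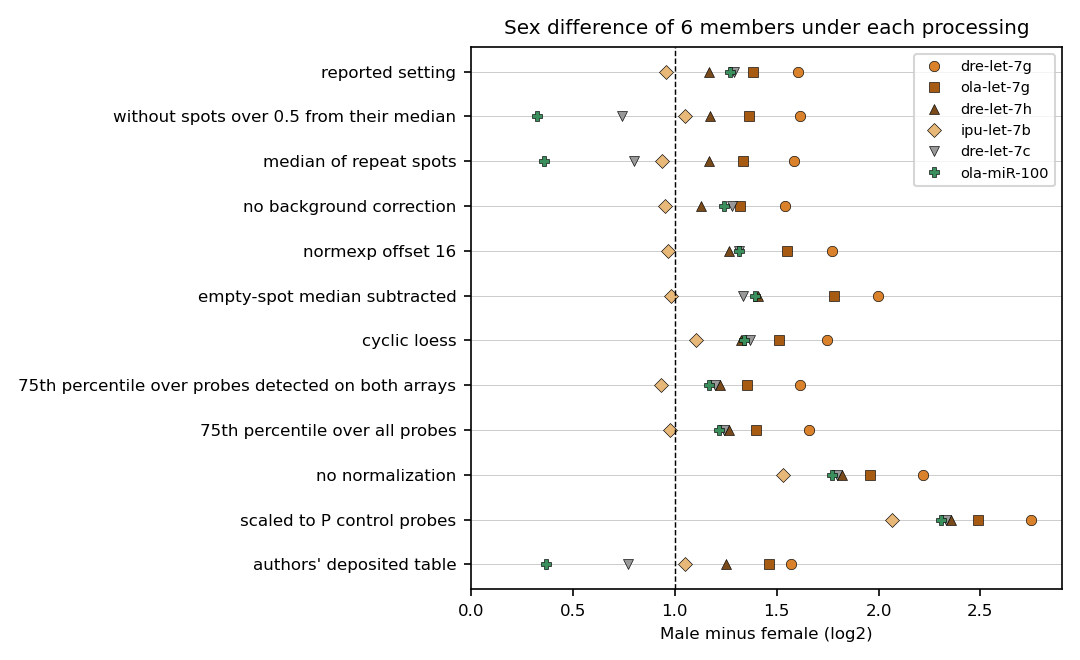
Male minus female difference (log2, x axis) of 6 members under 12 ways of processing (y axis), with a dashed line at the size limit of 1. The 2 let-7g probes and let-7h lie right of the line throughout, whereas dre-let-7c and ola-miR-100 fall left of it without stray spots, with the median of spots and in the authors' deposited table.

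Markers of the tissue and of cell types it can hold were read on the same arrays. Of 3 probes for miR-202, a miRNA of vertebrate gonads, 1 was detected, and their summed net intensity was 47.1 in the female and 515 in the male. The gonad marker was thus close to background on the female array. miR-192 and miR-194 of kidney and gut epithelium had a median difference of -1.11 over 6 detected probes, with 4 of them higher in the female gonad and summed net intensities of 5344 and 3625. The medians were -0.24 for striated muscle (20 detected), 0.00 for smooth muscle and mesenchyme (14), -0.36 for erythroid cells (6), -0.11 for leukocytes (12, from -0.69 to 1.30), -0.40 for endothelium (5, from -0.55 to 0.93) and -0.063 for epithelium (12). Among the leukocyte probes 1, dre-miR-223, was higher in the male gonad at 1.30, while ola-miR-223 was at -0.19, and the summed net intensity of the list was 31682 (female) and 39738 (male). Hepatocyte miR-122, faint on the female array (46.2 and 478 summed net), had a median of 1.29 over 2 probes, both higher in the male gonad. Neuronal miR-9 and miR-124 were detected by 4 of 13 probes, on the female array only, where the detection limit was lower (103 against 113). Summed over all 13 probes, net intensities were 174 (female) and 248 (male). These sums come mostly from undetected probes and do not show signal on the male array. The median difference of the detected probes was -0.015. The part of such cells in the let-7 differences was not tested.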

How the data were processed

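Each sex gave RNA to 1 single-colour array. Per the labels' protocols, a size filter enriched small RNA, which was poly(A)-tailed and joined to a tag that Cy3 dye binds. Scanner files list 3968 spots per array, each with its median intensity and pixel SD per the file headers, without background correction (digit separators were removed on reading). The authors' deposited table has 1 linear intensity for each probe, with medians of 138 and 150 and a lowest value of 0.01. How it was normalized is not given in the sources used, and it served as an alternative (log2 with 50 added).

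Scanner values were corrected by normexp with offset 50 (limma 3.58.1 on R 4.3.3), averaged in log2 over 5 spots and quantile normalized over 663 miRNA probes. Further steps used Python 3.11.15, numpy 2.4.6 and pandas 2.3.3. Detection limits were 103 (female) and 113 (male). Detected probes had a median SD over spots of 0.11 on each array, and the number of arrays limits the precision. Every detected member may be named with its values, undetected ones only without a fold. The linkage sets follow mammals. Alternatives changed the background correction, the scaling between arrays, the summary of spots, single stray or left-out spots, the detection and size limits, the overlap condition, the handling of near-identical targets and the source of the values. Those with 1 value per probe make up the 17 ways of processing, the reported one included. Members, lists and rules were chosen with earlier results of these data known. The call rule was tested on simulated data drawn from the female array's probe means and spot SDs. That simulation holds no variation between fish or arrays. Sequences are the chip's targets, and no genome was used.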

Additional observations from a re-analysis of the deposited data

How the results depend on the processing

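With 5 members higher in the male gonad as reported, the count was 11 without normalization, 18 with scaling to P control probes, 3 with the median of spots, 2 with the brightest of members of almost the same target and 10 with a size limit of 1.5-fold. Over the chip 15.1% (no normalization), 40.4% (P control probes), 3.88% (median of spots) and 10.2% (limit of 1.5-fold) of probes were then higher in the male. The count of members was 4 to 7 in the other settings, 6 in each run that left out 1 repeat spot. Beside it stood 4.08% to 7.76% of all detected probes (4.29% to 5.31% in the runs that left out a spot). In the female direction the count of members was 0 in any setting. Over the chip that share was 1.63% as reported, 0% without normalization or with P control probes, and at most 7.76% (limit of 1.5-fold). The let-7 median of 0.13 became -0.12 with the 75th percentile of probes detected on both arrays, -0.073 with that of all probes, 0.48 without normalization, 1.02 with P control probes and 0.34 with the empty-spot median subtracted. The miR-99 and miR-100 median of 0.24 became 0.39 with cyclic loess, 0.79 without normalization and 1.33 with P control probes. The miR-125 median of 0.21 became -0.088 and -0.043 with the 75th percentiles, 0.51 without normalization and 1.05 with P control probes. These scalings shifted all probes together: the median over the chip was 0.37 without normalization, 0.90 with P control probes and -0.23 and -0.19 with the 75th percentiles. Of 480 differences of single members under the alternatives, 394 moved by less than the spread of the spots and 86 moved by more. That spread includes stray spots and was 2.03 for ola-miR-100 and 1.75 for dre-miR-100. Large moves of such probes thus count among the 394. Of the called differences 0 changed sign, but the size rule makes these start at 1 or more, far from 0. Some members that were not called lay on both sides of 0, such as dre-let-7a (-0.19 to 0.95) and dre-let-7i (-0.45 to 0.70). Others, such as dre-let-7b (0.82 to 2.01), did not. Dim probes such as fru-let-7j are limited by background, and their difference ran from -0.0086 to 2.77. No paired analysis was possible because each sex has 1 array.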

Other observations

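A custom probe outside the group, novel_4 (aGAGGUAGuugguuguauaguu, seed in capitals), holds the let-7 seed and differs from dre-let-7a by U1A and A10U. Its levels were 11.98 ± 1.36 (female) and 13.01 ± 0.04 (male), with SDs over 5 spots. Its difference of 1.04 passed the size rule with all spots and was 0.52, not past it, without stray spots. Its low female spot read 535 net with a pixel SD of 89.97% of its intensity, while the other 4 read 4668 to 5153 net.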
